A study of Mus musculus with 8 samples.

Results

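The enzymes and transporters that build and remodel phospholipids and glycerolipids were compared between GFP-positive and GFP-negative cells of mouse alveolar organoids. The set held 34 genes, picked by symbol from the 23284 genes of the counts table for their place in the pathway, and all 34 passed the filter on low counts, as did 12848 genes in all. The organoids were grown in drops of matrigel with FNHCAS medium from lung cells of Sftpc-eGFP transgenic mice, in which the control region of the surfactant protein C gene drives the reporter. GFP therefore marks cells in which that gene is active, usually alveolar type 2 (AT2) cells. Each of the lines SN2285, SN2286, SN2293 and SN2294 was sorted into both fractions by flow cytometry, which gave 4 GFP-positive and 4 GFP-negative libraries of polyadenylated RNA. Both fractions carry the transgene and no further treatment is labelled. Age is not given, nor whether the lines came from separate animals, so p-values measure the spread between these lines.

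AT2 cells secrete surfactant, a film made mostly of phosphatidylcholine with a smaller part of phosphatidylglycerol. Both lipids start from glycerol 3-phosphate, which is acylated to phosphatidic acid. Phosphatidic acid then either loses its phosphate to give diacylglycerol, which joins with CDP-choline to make phosphatidylcholine, or is activated to CDP-diacylglycerol, the precursor of phosphatidylglycerol. The saturated chains of surfactant phosphatidylcholine are in part put in afterwards, when a phospholipase removes an acyl chain and a lysophospholipid acyltransferase adds another.

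Levels below are in CPM, counts set to a common library total after TMM composition scaling, with n = 4 libraries per fraction. Log2 fold changes are GFP-positive over GFP-negative with their SE, from edgeR's quasi-likelihood test, and a gene was called at an adjusted p under 0.05 over all genes tested. The GFP-positive libraries held 11202576 to 16032633 counts and the GFP-negative ones 5910344 to 15583384. The smallest, GFP-negative SN2294, also held transcripts of some leukocyte markers that were scarce elsewhere, with Csf1r at 10.9 CPM against at most 0.19 in the other 7 libraries and Tyrobp at 7.39 against at most 0.0656. The sum of all 10 macrophage and leukocyte markers was 428 to 2445 CPM in GFP-positive and 310 to 605 CPM in GFP-negative libraries. Most of it was Lyz1, which reached 2080 CPM in GFP-positive SN2286, and Cd14, which was called higher (311 against 178 CPM) and was at 159.8 CPM in GFP-negative SN2294. The fractions differed in cell type markers as well. The summed level of 10 AT2 markers was 37311 to 42194 CPM in GFP-positive and 4396 to 6214 CPM in GFP-negative libraries. The sort gene Sftpc alone made up 14810 to 19290 and 438 to 1267 CPM of it, and 1 of the 10, Lyz2, was called lower (−2.39). The 9 alveolar type 1 markers summed to 2606 to 3569 and 1766 to 2452 CPM. Of the 8 tested, 5 were called higher, among them Ager (3.16) and Clic5 (1.46), and Pdpn was called lower (−1.94). With line as a term in the model 6 were called higher and 2 lower, adding Hopx (0.83) and Cav1 (−0.47). For 8 basal cell markers the sums were 56.8 to 114 and 2422 to 3013 CPM, for 10 fibroblast markers 18 to 27.7 and 566 to 931 CPM, and for 7 club and secretory markers 55.8 to 1075 and 1528 to 2573 CPM. Of the 6 club and secretory markers tested, 3 were called lower and 0 higher. Bpifa1 and Scgb1a1 were higher in GFP-positive cells in 3 lines without being called, and Bpifa1 reached 731 CPM in GFP-positive SN2286. All 8 basal and all 10 fibroblast markers had counts in every GFP-negative library. The 5 lipofibroblast markers summed to 139 to 196 and 120 to 160 CPM. Of these, Plin2 (0.56) and Limch1 (1.07) were called higher. Tcf21, at 0 in every GFP-positive library, Fgf10 and Lpl were called lower. The 6 endothelial markers summed to at most 1.1 CPM in any library. For 6 ciliated cell markers the sums were 0.91 to 2.38 and 3.15 to 16.9 CPM, highest in GFP-negative SN2286. Of the 2 tested, Foxj1 was called lower (−3.33) and Cfap126, listed as 1700009P17Rik, did not pass (−1.03). In bulk RNA, fewer cells of a type cannot be told apart from less RNA per cell, and the part of these other cell types in the differences below was not tested.

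Of the 34 genes, 13 were called higher and 8 lower in GFP-positive cells, 38.2% and 23.5% of those tested, where 18.9% and 21.8% of all genes were called in these directions. Together 61.8% were called, against 40.7% of all genes. The median log2 fold change over the 34 was 0.17, beside −0.01 over all genes tested. The fractions did not overlap for 21 of the 34, where this held for 39.6% of all genes, and 8 were called with a difference of at least 2-fold, where 15.5% of all genes were. All 21 called genes had the same direction in 4 of 4 lines. For 19 of the 21 the fractions did not overlap, which fixes the direction in every line, so this agreement is no further evidence. With line as a term 13 of the 34 were higher and 9 lower, where 22.8% and 25.2% of all genes were called. Scaling by library size alone moved the median of all genes to −0.16 and gave 9 higher and 11 lower, so small changes depend on that choice. In that fit 5704 of all genes tested were called, against 5231 in the main fit. Their split into higher and lower was not counted, so the 9 and 11 have no share beside them.

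**Figure D1:**
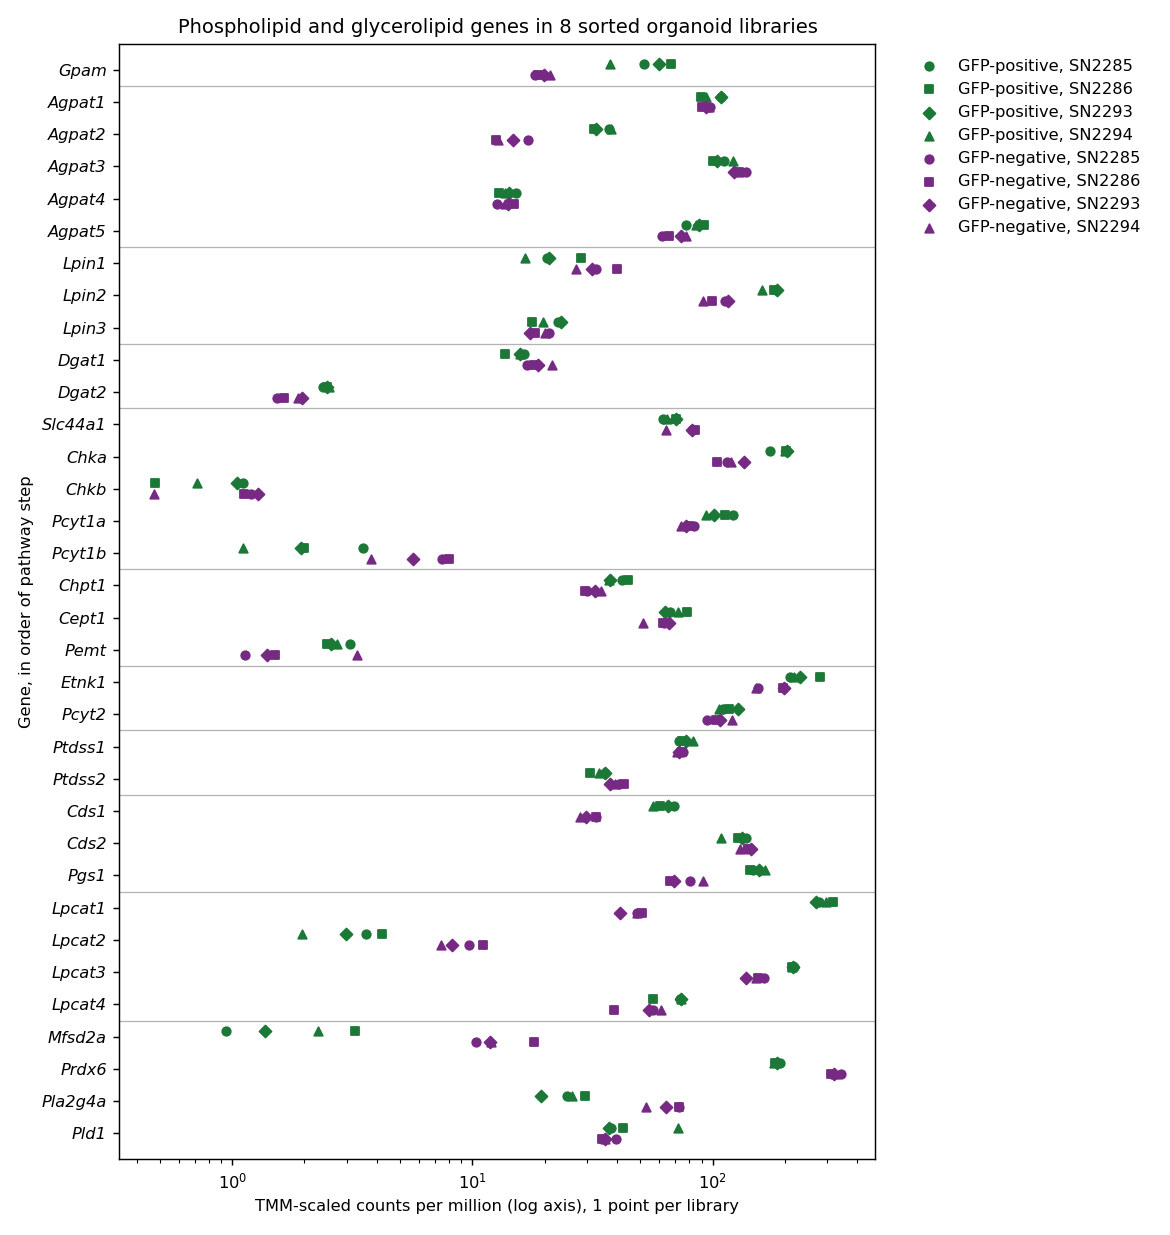
Level of each gene in every library, in CPM on a log axis, with genes ordered by pathway step from top to bottom. Green points are GFP-positive and purple points GFP-negative libraries, and marker shapes give the line. Lpcat1 lies at 269 to 317 CPM in green and 41.2 to 50.7 CPM in purple, and Prdx6 shows the opposite order.

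At the entry step the gene in the set, Gpam, was higher in GFP-positive cells. It encodes the mitochondrial glycerol-3-phosphate acyltransferase that adds the first acyl chain. Its level was 51.7, 67.1, 59.6 and 37.3 CPM in GFP-positive cells of lines SN2285, SN2286, SN2293 and SN2294, and 18.2, 18.8, 19.9 and 21.1 CPM in GFP-negative cells of the same lines. Every GFP-positive library lay above every GFP-negative one, with SN2294 the lowest of the GFP-positive libraries and the highest of the GFP-negative. The log2 fold change was 1.47 (SE 0.16, adjusted p = 2.1e-05), a 2.77-fold difference. Within lines the log2 ratio ran from 0.82 in SN2294 to 1.83 in SN2286. The related acyltransferase genes outside the set did not follow it. Gpat4, listed as Agpat6, was at 101 ± 15.2 against 92 ± 3.63 CPM and did not pass (0.14, adjusted p = 0.29). Gpat3, listed as Agpat9, was at 4.92 ± 1.15 against 7.22 ± 1.30 CPM and did not pass (−0.54, adjusted p = 0.063), but was called lower with line as a term (−0.55, adjusted p = 0.025). Gpat2 was below the filter on low counts.

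Among the AGPAT genes, whose products add the second chain to lysophosphatidic acid, Agpat2 stood out. Agpat2, whose loss causes lipodystrophy in people and mice, was at 37, 32.1, 32.7 and 38 CPM in GFP-positive and 17.1, 12.6, 14.7 and 12.7 CPM in GFP-negative libraries, in the line order given for Gpam and kept below. The groups were apart in all lines (log2 fold change 1.28, SE 0.12, adjusted p = 5.6e-06). Agpat5, a mitochondrial member, rose by little, from 69.8 ± 7.23 (SD) to 85.7 ± 6.26 CPM (log2 fold change 0.30, SE 0.09, adjusted p = 0.017). That call was lost under library-size scaling (0.15, adjusted p = 0.22), without GFP-positive SN2286 (adjusted p = 0.050) and without GFP-negative SN2285 (adjusted p = 0.052). Agpat3 fell by little, from 129.7 ± 6.02 to 109.5 ± 8.98 CPM (−0.24, SE 0.07, adjusted p = 0.020), and this call was lost without GFP-positive SN2286 or SN2293 or GFP-negative SN2285 (adjusted p = 0.062 to 0.070). Agpat1 and Agpat4 did not pass, with log2 fold changes of 0.08 (95% interval −0.07 to 0.23) and 0.01 (−0.21 to 0.23).

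The lipins remove the phosphate of phosphatidic acid to give diacylglycerol, and they moved in opposite directions. Lpin2 was at 185, 180.1, 186 and 160.5 CPM in GFP-positive and 113, 99.8, 116 and 91.5 CPM in the GFP-negative ones, a log2 fold change of 0.76 (SE 0.09, adjusted p = 2.7e-05). Lpin1, which also acts as a transcriptional coactivator in liver, was at 20.5, 28.3, 20.9 and 16.6 CPM in GFP-positive and 32.9, 40.2, 31.4 and 27.1 CPM in the GFP-negative ones (−0.62, SE 0.16, adjusted p = 0.010). For Lpin1 the groups overlapped, because the highest GFP-positive library, SN2286, lay above the lowest GFP-negative one, SN2294. Within each line it was lower in the GFP-positive library, by 0.50 to 0.70 on the log2 scale. Lpin3 did not pass (0.13, 95% interval −0.11 to 0.36).

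The last step to triacylglycerol, the storage fat, is made by Dgat1 and Dgat2, and neither was called. Dgat1 lay at 13.6 to 16.4 CPM in GFP-positive and 16.8 to 21.4 CPM in GFP-negative libraries, and Dgat2 at 2.4 to 2.54 and 1.54 to 1.95 CPM. The ranges were apart for both genes, in opposite directions, but the log2 fold changes of −0.28 (SE 0.11, adjusted p = 0.073) and 0.50 (SE 0.23, adjusted p = 0.10) missed the threshold. Dgat2 rested on 12 to 39 counts per library.

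On the route from choline to CDP-choline Chka and Pcyt1a were higher, Pcyt1b was lower, and Slc44a1 and Chkb were not called. Chka, which phosphorylates choline, was at 173, 202, 204 and 200.6 CPM in GFP-positive and 115, 104, 135 and 119 CPM in the GFP-negative ones, a log2 fold change of 0.72 (SE 0.09, adjusted p = 4.9e-05). Pcyt1a makes CDP-choline and is the main regulated step of phosphatidylcholine synthesis. It was at 121, 113, 101 and 93.7 CPM in GFP-positive and 83.7, 79.8, 77.4 and 73.8 CPM in GFP-negative libraries, a smaller difference with no overlap (0.44, SE 0.09, adjusted p = 0.0014). Its paralogue Pcyt1b changed the other way, at 3.51, 2, 1.93 and 1.11 CPM in GFP-positive and 7.48, 8.01, 5.66 and 3.77 CPM in the GFP-negative ones (−1.58, SE 0.34, adjusted p = 0.0027). The fall of Pcyt1b was seen in 4 of 4 lines, with the lowest levels of both fractions in SN2294.

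The choline transporter gene Slc44a1 was at 62.4 to 70.7 CPM in GFP-positive libraries, and at 82.4, 84.7, 82.2 and 64.2 CPM in the GFP-negative ones, where SN2294 alone reached into the GFP-positive range. It was not called (−0.23, SE 0.09, adjusted p = 0.067). It was called lower with line as a term (−0.23, adjusted p = 0.026), without GFP-negative SN2294 (−0.31, adjusted p = 0.0059) and when only library size set the scale (−0.38, adjusted p = 0.0041). Of the related genes outside the set, Slc44a2 was called higher at 374 ± 36.7 against 218 ± 38.6 CPM (0.78, adjusted p = 4.6e-04), as was Slc44a3 at 114 ± 7.40 against 72 ± 8.96 CPM (0.65, adjusted p = 1.2e-04). Slc44a4 did not pass (0.25, adjusted p = 0.42) but was called higher with line as a term (0.28, adjusted p = 0.026). Chkb, the other choline kinase gene, rested on 3 to 21 counts per library and did not pass (−0.35, 95% interval −1.10 to 0.39).

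To show the control regions of called genes at these steps, the RefSeq promoter windows (GRCm38.p6, around each annotated start site) were searched on both strands for the sterol regulatory element TCACNCCAC, the C/EBP motif TTGCNNAA and the Nkx2-1 motif CACTTGA. Windows were matched for 28 of the 34 genes, 43 windows in all. The sterol element was found in 1 gene, Pcyt1a, where 2 overlapping windows share the site, and in 1.24% of all 32851 windows. The C/EBP motif was found in 6 of the 43 windows and in 10.8% of all windows, and the Nkx2-1 motif in 0 of the 43 and in 3.06% of all windows. Matches in 4 called genes are shown 5′ to 3′ on the gene's strand with the motif in capitals, which mark matching letters and not a bound site. In Lpin2 and Etnk1 the match reads on the opposite strand.
Pcyt1a, sterol element, chr16:32430780-32430838, plus strand: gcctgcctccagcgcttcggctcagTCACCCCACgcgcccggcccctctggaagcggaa
Lpin2, C/EBP, chr17:71204559-71204616, plus strand: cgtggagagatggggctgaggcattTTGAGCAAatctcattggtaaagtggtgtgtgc
Etnk1, C/EBP, chr6:143166980-143167025, plus strand: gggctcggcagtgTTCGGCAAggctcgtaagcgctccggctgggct
Agpat3, C/EBP, chr10:78351817-78351874, minus strand: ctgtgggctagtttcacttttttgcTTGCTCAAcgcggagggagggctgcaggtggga
Pcyt1a, Lpin2 and Etnk1 were called higher and Agpat3 lower. Of the other C/EBP matches, Gpam was called higher, and Cept1 and Pld1 did not pass.

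Of the genes for the last reactions to phosphatidylcholine, Chpt1 was called higher, and Cept1 and Pemt were not called. Chpt1, the choline-specific phosphotransferase, was at 42.1, 44.6, 37.5 and 37 CPM in GFP-positive and 30, 29.4, 32.4 and 34.3 CPM in GFP-negative libraries. The groups were apart (log2 fold change 0.36, SE 0.10, adjusted p = 0.010), though the call was lost under library-size scaling (0.20, adjusted p = 0.11). Cept1, which uses CDP-choline and CDP-ethanolamine, did not pass (0.21, 95% interval 0.02 to 0.39, adjusted p = 0.10). That interval is approximate and leaves out 0 although the unadjusted p was 0.0504 (quasi-likelihood test). In the annotation used here 771 bases of a Cept1 exon overlap Dennd2d, itself higher in GFP-positive cells (0.60), and the strand of the counting is not given, so its value is uncertain. Pemt, which methylates phosphatidylethanolamine to phosphatidylcholine, mainly in liver, was at 2.48 to 3.08 CPM in GFP-positive and 1.14, 1.51, 1.4 and 3.3 CPM in GFP-negative libraries. It did not pass (0.67, SE 0.33, adjusted p = 0.13), and without GFP-negative SN2294, whose level was the highest of all 8, it did (1.01, adjusted p = 0.0084).

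In the ethanolamine branch the kinase gene Etnk1 was at 210.2, 280.2, 231 and 217 CPM in GFP-positive and 154, 196, 198 and 152 CPM in the GFP-negative ones, a log2 fold change of 0.42 (SE 0.12, adjusted p = 0.013). Its call was lost under library-size scaling (0.27, adjusted p = 0.074). Pcyt2, which makes CDP-ethanolamine, did not pass (0.12, 95% interval −0.05 to 0.29) but was called higher without both SN2294 libraries and with line as a term (0.23, adjusted p = 0.0074). The phosphatidylserine synthase genes exchange head groups for serine. Ptdss1 did not pass (0.07, 95% interval −0.06 to 0.21). Ptdss2 passed narrowly as lower, at 34 ± 2.32 against 40.1 ± 2.27 CPM (−0.24, SE 0.09, adjusted p = 0.043). It lost the call when any of 7 libraries was left out, in turn (adjusted p = 0.052 to 0.13), the exception being GFP-negative SN2293, and with DESeq2 (adjusted p = 0.055).

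In the branch to phosphatidylglycerol Cds1 and Pgs1 were each about 2-fold higher, and Cds2 was not. Cds1 and Cds2 make CDP-diacylglycerol. Cds1 was at 68.9, 60.4, 65 and 56.4 CPM in GFP-positive and 32.6, 32.8, 29.7 and 28.2 CPM in the GFP-negative ones, a log2 fold change of 1.02 (SE 0.09, adjusted p = 3.4e-06). Pgs1, which forms phosphatidylglycerol phosphate in mitochondria, was at 147, 143, 156 and 166 CPM in GFP-positive and 80.6, 66.8, 69.2 and 91.4 CPM in the GFP-negative ones, a 1.99-fold difference (SE 0.10 on the log2 scale, adjusted p = 9.9e-06). Both genes were apart in every line, with within-line log2 ratios of 0.88 to 1.13 for Cds1 and 0.86 to 1.17 for Pgs1. The second synthase gene, Cds2, did not pass (−0.13, 95% interval −0.29 to 0.02), although it was below its GFP-negative partner in 4 of 4 lines. Under library-size scaling it was called lower (−0.29, adjusted p = 0.011). Per exon length the summed level of Cds1 and Cds2 was 30 ± 2.74 against 23.3 ± 1.07 RPKM. Ptpmt1, which turns phosphatidylglycerol phosphate into phosphatidylglycerol, is not among the 34 and was called lower, at 13.6 ± 1.19 against 16.9 ± 0.557 CPM (−0.31, SE 0.11, adjusted p = 0.040). Tamm41, listed as 1500001M20Rik, is a further gene of this branch outside the set. It was at 17.2 ± 0.280 against 15.6 ± 1.73 CPM and did not pass (0.15, adjusted p = 0.32).

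**Figure D2:**
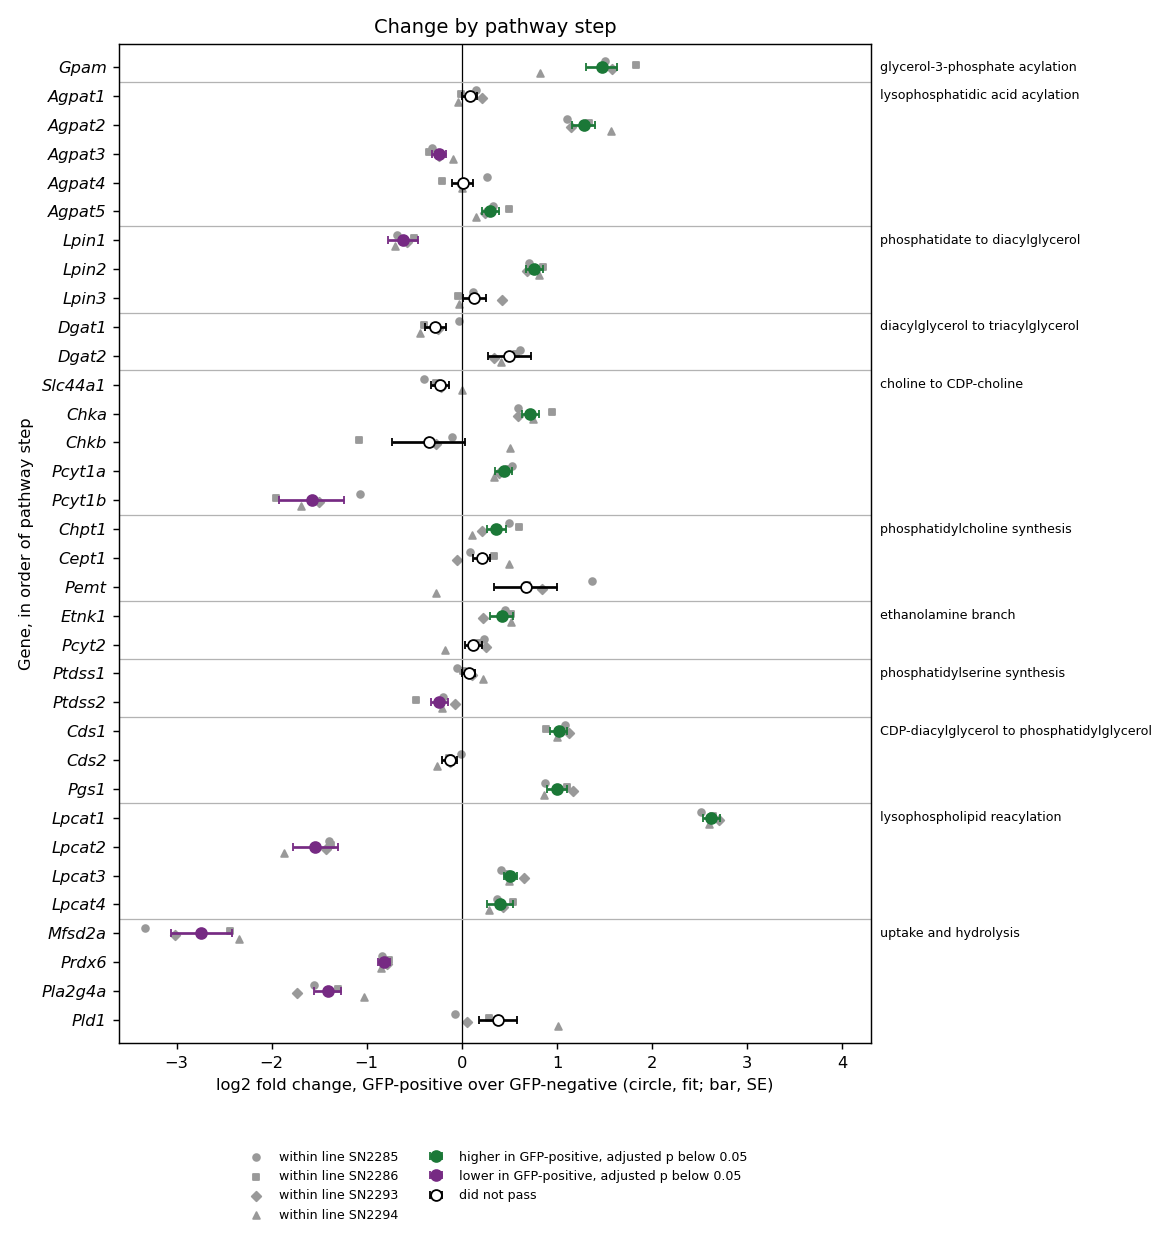
Log2 fold change, GFP-positive over GFP-negative, for each gene in order of pathway step. Large circles with bars are the fit and its SE, green for called higher, purple for called lower and open for genes that did not pass, and small grey markers are log2 ratios within each line after adding 0.1 CPM. The green circle farthest to the right is Lpcat1 at 2.62, and the purple circle farthest to the left is Mfsd2a at −2.74.

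The 4 LPCAT genes, whose products reacylate lysophospholipids, were all called, with 3 higher and 1 lower. Of all genes tested, 18.9% were called higher and 21.8% lower. Lpcat1 reacylates lysophosphatidylcholine with saturated chains and is needed for saturated surfactant lipid in mice. It was at 278, 317, 269 and 296 CPM in GFP-positive and 48.6, 50.7, 41.2 and 48.6 CPM in GFP-negative libraries, 6.14-fold higher and the largest rise of the 34 genes (log2 fold change 2.62, SE 0.09, adjusted p = 3.0e-09). Its log2 ratio was nearly the same in each line, from 2.51 to 2.70. Lpcat3, which prefers polyunsaturated chains, was at 218, 214, 216 and 215 CPM in GFP-positive and 164, 155, 138 and 152 CPM in the GFP-negative ones, a log2 fold change of 0.51 (SE 0.07, adjusted p = 8.8e-05). A stretch of 38 bases of an Lpcat3 exon overlaps Emg1, a gene that did not pass (−0.18) but was called lower with line as a term (−0.18, adjusted p = 0.047). Exons of Agpat1, Chpt1 and Ptdss1 overlap genes with mean levels of at most 0.852 CPM in either fraction. Lpcat4 was at 73.5, 56.8, 73.7 and 73.9 CPM in GFP-positive and 56.7, 39, 54.5 and 61 CPM in GFP-negative libraries. The 2 ranges of Lpcat4 overlapped across lines but not within them, since SN2286 was the lowest in both fractions. It passed (0.40, SE 0.14, adjusted p = 0.036), lost the call in 5 of the 8 fits that left out a library (adjusted p = 0.064 to 0.086) and under library-size scaling (adjusted p = 0.18), and was clearer with line as a term (adjusted p = 4.0e-04).

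Lpcat2, which also makes platelet-activating factor in inflammatory cells, was the member of this group that fell. Its level was 3.6, 4.19, 2.98 and 1.95 CPM in GFP-positive and 9.69, 11.1, 8.21 and 7.39 CPM in the GFP-negative ones, a log2 fold change of −1.54 (SE 0.24, adjusted p = 2.7e-04). SN2294 had the lowest level of Lpcat2 in both fractions. Its GFP-negative library also held leukocyte transcripts, and a link to Lpcat2 was not tested. Over the 8 fits that left out a library the log2 fold change of Lpcat2 stayed between −1.70 and −1.35. Among lysophospholipid acyltransferase genes outside the set, Mboat1 (0.56) and Mboat7 (0.28) were called higher and Lclat1 (−0.51) lower. Lpgat1 (−0.15, adjusted p = 0.12) and Mboat2 (0.70, adjusted p = 0.080) did not pass, and Mboat2 was called higher with line as a term (0.73, adjusted p = 0.0026).

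Of the 4 genes of lipid uptake and hydrolysis in the set, 3 were called lower and 0 higher, where 21.8% and 18.9% of all genes were. Other genes of glycerolipid hydrolysis, outside the set, included several that were called higher, namely Pla2g1b (log2 fold change 2.81), Pla2g4f (1.72), Pnpla2 (0.66), Gde1 (0.57), Pla2g6 (0.56), Gdpd1 (0.45) and Lipe (0.30). Lpl (−1.79) and Lypla1 (−0.44) were called lower. Mfsd2a encodes a transporter of lysophosphatidylcholine known from the blood-brain barrier. It was at 0.942, 3.24, 1.37 and 2.28 CPM in GFP-positive and 10.4, 18, 11.8 and 12 CPM in the GFP-negative libraries, 6.69-fold lower and the largest fall of the 34 genes (log2 fold change −2.74, SE 0.32, adjusted p = 4.0e-05). SN2286 had the highest level in both fractions. Pla2g4a, the cytosolic phospholipase A2 that releases arachidonic acid, was at 24.7, 29.5, 19.2 and 25.9 CPM in GFP-positive and 72.6, 72.8, 64 and 52.8 CPM in the GFP-negative ones (−1.41, SE 0.14, adjusted p = 8.9e-06). Prdx6 joins a peroxidase with a phospholipase A2 activity that takes part in surfactant turnover in mouse lung. It was at 192, 181, 186 and 179.8 CPM in GFP-positive and 343, 310.0, 321 and 324 CPM in the GFP-negative ones (−0.82, SE 0.06, adjusted p = 1.3e-06).

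Pld1, which splits phosphatidylcholine into phosphatidic acid and choline, did not pass (0.38, SE 0.20, adjusted p = 0.17). Its GFP-positive level was 71.6 CPM in SN2294 and 37 to 42.4 CPM in the other 3 lines, while the GFP-negative levels lay at 34.7 to 39.6 CPM. Without GFP-positive SN2294 its log2 fold change was 0.10 (adjusted p = 0.43).

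For 13 pairs of paralogues the difference of their log2 CPM was taken in each library. It separated the fractions for 9 pairs, with the smallest p that a two-sided exact permutation test over 70 assignments can give (p = 0.0286, adjusted p = 0.0413 over the 13 pairs). This restates the values given gene by gene above, some of them for pairs already called in opposite directions, so it is a description and no further evidence, and the test takes no account of the line. Flipping signs within the 4 lines, also exact, cannot give a p below 0.125, so 0 of 13 pairs passed that test. The widest shift was that of Lpcat1 over Lpcat2, at 6.49 ± 0.44 log2 units in GFP-positive and 2.37 ± 0.22 in GFP-negative libraries, a difference of 4.12. Lpcat1 also gained on Lpcat4 (by 2.21) and Lpcat3 (by 2.11), Pcyt1a on Pcyt1b (by 1.97), Agpat2 on Agpat1 (by 1.21) and Cds1 on Cds2 (by 1.15). Lpin1 lost ground to Lpin2 (−1.38) and Dgat1 to Dgat2 (−0.75), and Ptdss1 over Ptdss2 shifted least of the 9 (0.31). The last pair missed the threshold when any 1 GFP-negative library was left out (adjusted p = 0.068 to 0.083, permutation test). The pairs Agpat4 and Agpat5, Lpin1 and Lpin3, and Chka and Chkb did not pass (adjusted p = 0.0929, permutation test), nor did Chpt1 and Cept1 (0.14, adjusted p = 0.343, permutation test).

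Levels of different genes can be set side by side only per length, here as CPM per kilobase of exon (RPKM) with GENCODE M21 exon lengths, which may differ from those behind the counts. In GFP-positive cells the highest of the 34 on this scale was Lpcat3 at 94.6 ± 0.773 RPKM, followed by Lpcat1 (77.1 ± 5.68), Chka (74.9 ± 5.56) and Prdx6 (73.9 ± 2.09), the last 3 within their spread of each other. In GFP-negative cells Prdx6 came first at 129.9 ± 5.53 RPKM, before Lpcat3 (66.7 ± 4.69) and Pcyt2 (56.6 ± 5.89), and Lpcat1 stood at place 16 with 12.6 ± 1.11 RPKM. The lowest were Pcyt1b in GFP-positive (0.408 ± 0.191 RPKM) and Chkb in GFP-negative cells (0.596 ± 0.216 RPKM). Pla2g4a stood at place 23 in GFP-positive and place 8 in GFP-negative cells.

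The make-up of some families followed from this. Of the summed LPCAT level per length, Lpcat1 supplied 35.8 to 41.2% in the GFP-positive libraries and 11.1 to 13.2% in the others. The sum itself was 203 ± 2.74 RPKM against 106 ± 6.63 RPKM. Cds1 made up 52 to 54.3% of the CDS level in the GFP-positive libraries, and 31.9 to 35% in the rest. Agpat2 went from 10.2 to 13.3% of the AGPAT level in GFP-negative to 22.1 to 25.7% in GFP-positive libraries, with Agpat1 the largest share in both. Lpin2 was the main lipin in both fractions, at 75.4 ± 0.355% and 61.2 ± 3.12%. Pcyt1a held at least 91.3% of the PCYT1 level and Chka at least 98.4% of the choline kinase level in any library.

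**Figure D3:**
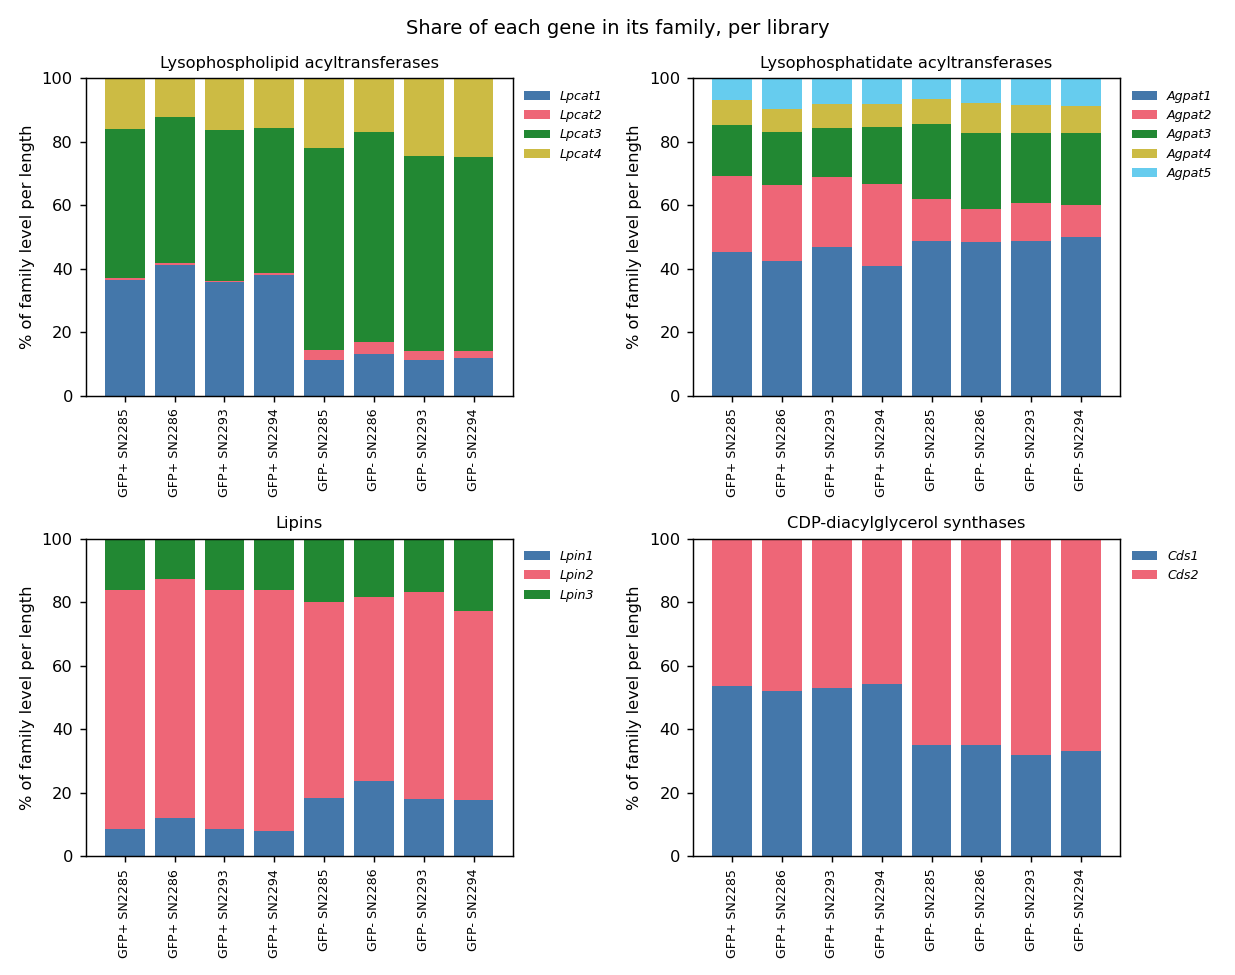
Share of each gene in the summed RPKM of its family, in percent, 1 bar per library with GFP-positive libraries on the left of each panel. In the LPCAT panel the blue Lpcat1 segment covers 35.8 to 41.2% of the 4 GFP-positive bars and 11.1 to 13.2% of the GFP-negative ones, and in the CDS panel Cds1 covers more than Cds2 in the GFP-positive bars alone.

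A further 70 phospholipid and glycerolipid genes were read from the same fit, of which 61 were tested. Of these, 25 were called higher and 10 lower, 41% and 16.4% of those tested where 18.9% and 21.8% of all genes were, with a median log2 fold change of 0.23. The 4 that rose most were Pla2g1b, a secreted phospholipase gene at 6.66 ± 1.35 against 0.977 ± 0.299 CPM (log2 fold change 2.81, adjusted p = 8.3e-06), Pla2g4f, a relative of Pla2g4a (1.72, adjusted p = 9.3e-04), Gpd1, which makes glycerol 3-phosphate (1.26, adjusted p = 2.2e-05), and the sphingomyelin synthase gene Sgms1 (1.21, adjusted p = 3.7e-06). The 4 that fell most were the lipid phosphatase gene Plpp3, listed as Ppap2b (−2.45, adjusted p = 1.4e-04), the lipoprotein lipase gene Lpl (−1.79, adjusted p = 0.0033), and the diacylglycerol kinase genes Dgka (−1.42, adjusted p = 2.1e-07) and Dgkh (−0.83, adjusted p = 0.018). Lpl was highest in SN2294 in both fractions. It stood at 49.1 CPM in the GFP-negative library, against at most 27.2 CPM in the other GFP-negative ones. In GFP-positive libraries it was at 9.68 CPM in SN2294 and 7.05 to 7.64 CPM in the others. GFP-negative SN2294 also held leukocyte transcripts, and a link to Lpl was not tested.

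Of 12 genes that carry and pack surfactant lipid, 11 rose and 0 fell (91.7% and 0%, beside the same 18.9% and 21.8%), with a median log2 fold change of 2.03. They were led by the protease gene Napsa (4.74), the reporter's own gene Sftpc (4.34), Sftpb (2.60) and the cathepsin gene Ctsh (2.34). Sftpc was the basis of the sort, so its difference is a check of the labels. Sftpb, Sftpd, Napsa, Lamp3 and Abca3 are also among the AT2 markers above, so their values are not a separate result. Among 19 regulators of lipid genes, 5 rose and 6 fell (26.3% and 31.6%, where 18.9% and 21.8% of all genes did; median −0.09). Cebpa, at 209 ± 10.6 against 79.9 ± 9.18 CPM (1.39, adjusted p = 2.5e-07), Pparg (1.29), Nkx2-1 (1.25) and Mlxipl (0.80) rose most. Cebpb (−1.74), Nr1h3 (−1.39), Scap (−0.69) and Klf5 (−0.60) fell most. Srebf1, the SREBP gene of fatty acid and phospholipid enzymes, did not pass (−0.12, SE 0.09, adjusted p = 0.32).

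**Figure D4:**
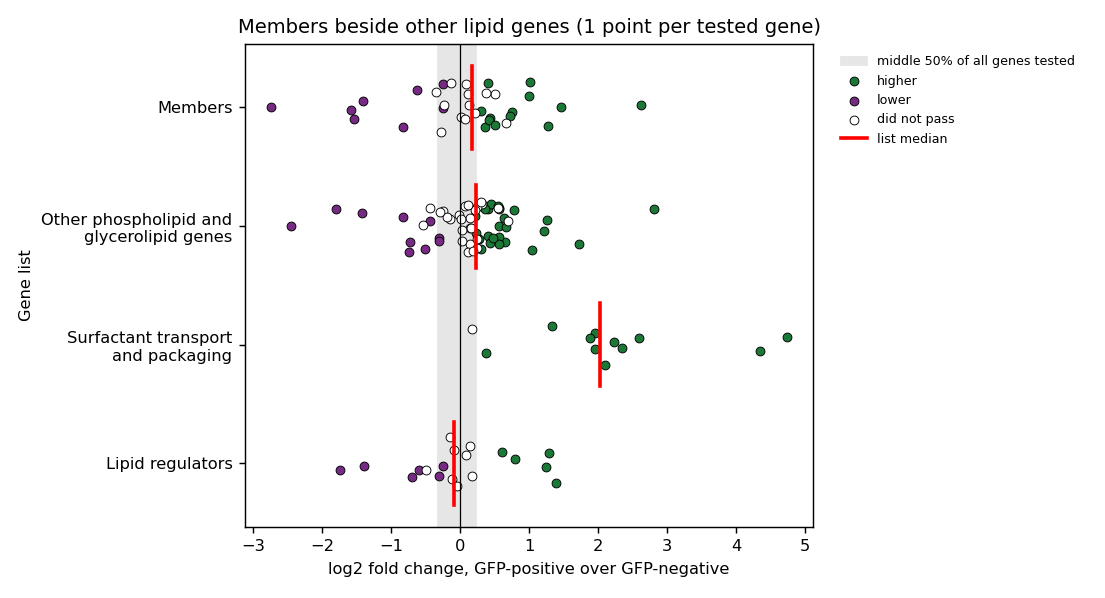
Log2 fold change, GFP-positive over GFP-negative, of each tested gene in 4 lists, with green for called higher, purple for called lower, open for genes that did not pass and a red bar at each median. The grey band holds the middle 50% of all 12848 genes tested. The medians are 0.17 for the 34 genes, 0.23 for the other pathway genes, 2.03 for transport and packaging and −0.09 for regulators.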

How the data were processed

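Raw counts per gene symbol were deposited by the authors, 1 column per library and without normalization. Per the submitters' processing notes, the tools were cutadapt 1.16, STAR 2.5.3a, Subread and featureCounts, and the build mm9. For the annotation, the strand setting and multiply mapped reads, the choice is not given in the sources used here. Intervals cover the spread in the fit, and amplified reads without molecular identifiers are not separate molecules.

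In R 4.3.3, edgeR 4.0.16 kept genes by filterByExpr (10 counts at library scale in at least 4 libraries, 15 in total). TMM factors, a robust quasi-likelihood fit and two-sided tests of the sorted fraction, with no further term, followed, with Benjamini-Hochberg adjustment at an FDR of 0.05 over all genes tested. The SE is the log2 fold change over the square root of F, and 95% intervals are 1.96 SE to either side. That multiple takes no account of the small number of libraries, so the intervals are approximate and somewhat too narrow. DESeq2 1.42.0 was an alternative. Log2 CPM for gene pairs used a prior count of 2.

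Same-line libraries form pairs, since both fractions came from 1 organoid line. Their deviations from the group means correlated across genes at 0.367, 0.455, 0.322 and 0.404 (lines SN2285, SN2286, SN2293 and SN2294), and those of different lines at −0.003 or below. Values with a term for line (replicate block) are given where they alter the call of a gene named here.

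On simulated counts of 12848 genes for this comparison, the test recovered 34% of genes changed 1.5-fold, 80% changed 2-fold, 96% changed 4-fold and 96% changed 8-fold, and called 10 of 12648 genes left unchanged. The simulated libraries had no line effect, and the changed genes, 50 at each size, were split evenly between higher and lower. In the data 40.7% of genes were called and same-line libraries were correlated, so these rates may not carry over. The genes and lists were chosen with earlier results of these data known. All 34 genes are named, and from each other list the 4 called genes at either end of the log2 fold change, besides markers, Srebf1 and genes whose exons overlap a member's. Relatives of members at the same step were added after their values were seen. Of the symbols looked up in all lists, 11 were matched through an older name. Promoter windows came from RefSeq (GRCm38.p6). A comparison of the members' protein sequences was planned and not run.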

Additional observations from a re-analysis of the deposited data

Results flagged for a closer look

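Of 68 groups of 4 libraries (34 genes in 2 fractions), 4 had a library that lay far from the other 3 by Dixon's criterion at 95%, where chance gives about 1 in 20. Slc44a1 was at 64.2 CPM in GFP-negative SN2294 and at 82.2 to 84.7 CPM in the other GFP-negative libraries. Chka was at 173 CPM in GFP-positive SN2285 and at 201 to 204 CPM in the other 3. Lpcat4 was at 56.8 CPM in GFP-positive SN2286 and at 73.5 to 73.9 CPM in the others. Pld1 was at 71.6 CPM in GFP-positive SN2294 and at 37 to 42.4 CPM in the others. The causes were not tested.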

How the results depend on the processing

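Each of the 34 log2 fold changes was recomputed under 15 alternatives: a term for line, library size alone, upper quartile factors, DESeq2 size factors, the DESeq2 test, no filter, each of 8 libraries left out, and both SN2294 libraries left out with line as a term. Of the 21 called genes, 15 kept direction and call under all 15. The exceptions were Agpat3, Agpat5, Chpt1, Etnk1, Ptdss2 and Lpcat4. Counts over the alternatives ranged from 9 to 15 genes higher and 6 to 11 lower, with 18 to 31 and 8 to 15 among the other pathway genes and 4535 to 6321 among all genes. With line as a term (replicate block) they were 13 and 9, 30 and 12, and 6169, and the only call of the 34 that changed was that of Slc44a1. Direction turned for 5 genes, none of them called. Library size alone gave −0.07 for Agpat1, −0.14 for Agpat4, −0.02 for Lpin3, −0.03 for Pcyt2 and −0.08 for Ptdss1, where all values shift downwards by construction. Agpat4 ran from −0.03 to 0.05 when single libraries were left out. Of the gene pairs, 9 passed with a prior count of 0.5, 8 to 10 without single libraries, and 0 in the sign-flip test over lines (replicate block), which cannot reach the threshold. The widest errors were those of Chkb, Pcyt1b and Pemt (SE 0.38, 0.34 and 0.33), and with line as a term that of Pcyt1b was 0.22. Chkb rested on as few as 3 counts in a library.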
